A study of Homo sapiens with 6 samples.

Results

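Metallothioneins are small cysteine-rich proteins that hold zinc and copper ions in clusters of cysteine sulphur. Their genes are switched on by MTF1, a zinc-finger factor that senses free zinc and binds short metal response elements in promoters, and MTF1 also drives SLC30A1, the zinc transporter that carries zinc out of the cell through the plasma membrane. Glucocorticoids are a further known inducer of metallothionein genes, and in the intestinal epithelium metallothioneins buffer the zinc and copper that the cells take up.

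Here 10 genes of this system are described among the 24462 different gene symbols counted, which are the 8 metallothionein genes MT1A, MT1E, MT1F, MT1G, MT1H, MT1M, MT1X and MT2A, the exporter gene SLC30A1 and the sensor gene MTF1. They are chosen by name, and each has 1 entry in every count file. The libraries come from 1CT, a line of immortalized human colonic epithelial cells (HCEC) labelled wild type, and from 1CT-A, the version of 1CT in which wild type APC is depleted, which the labels call APC KD. Each line has 3 libraries, and the comparison asks how the transcriptome of the colon cells differs once APC, the tumour suppressor that restrains Wnt/β-catenin signalling, is low. Both lines were untreated and grew in the same medium, which per the labels holds EGF at 20 ng/mL, hydrocortisone at 1 µg/mL, insulin at 10 µg/mL, sodium selenite at 5 nM, transferrin at 2 µg/mL and 2% FBS, and thus a glucocorticoid in every sample. The study's methods print mg in place of µg for hydrocortisone, insulin and transferrin. Each line is a single cell line, the way in which APC was depleted in 1CT-A is not given in the sources used here, and nothing says that the replicates are separate cultures, so p-values measure only the spread between these libraries.

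The libraries are 3′ end libraries (QuantSeq) made from 500 ng of total RNA, in which a transcript gives about 1 read near its end, so a level is given as counts per 1000000 counts of the library (CPM) and is not divided by gene length. The totals lie between 7788679 and 8452258 counts in 1CT and between 11158108 and 12602988 in 1CT-A, and a floor of 3 counts corresponds to levels of 0.355 to 0.385 CPM in the 1CT libraries and 0.238 to 0.269 CPM in the deeper 1CT-A libraries. APC has 417, 363 and 363 counts in 1CT and 351, 342 and 433 in 1CT-A, or 46.6 ± 2.75 against 31.9 ± 2.21 CPM (SD, n = 3), with a log2 fold change of -0.58 (SE 0.09, adjusted p = 1.8e-04 by edgeR's quasi-likelihood test). Of the markers of the labelled cell type, EPCAM, VIL1, CDX1, MUC2 and CHGA are at 0 in all 6 libraries. The 12 colon epithelium markers sum to 15.9 ± 2.24 CPM in 1CT and 5.43 ± 2.05 in 1CT-A. KRT18 (84, 109 and 82 counts in 1CT, 36, 80 and 62 in 1CT-A) and KRT19 (20, 27 and 34 counts against 0 in each) are the markers of this list that are tested, and both are called lower in 1CT-A. KRT19 passed the filter on low counts through the 1CT libraries alone. The 9 mesenchymal markers sum to 5246 ± 510 CPM in 1CT and 4450 ± 164 in 1CT-A. Of these, 5 are called lower in 1CT-A, VIM and COL1A1 among them, where 26.0% of all genes tested are called lower and 25.0% higher. The 2 called higher are COL3A1 (47.8 and 253 CPM) and DCN (70.6 and 89.4 CPM). PTPRC and CD3E of the white blood cells are at 0. The 5 white blood cell markers sum to 13.4 ± 1.52 and 9.73 ± 0.740 CPM. Most of this is CD68, with 12.1 and 9.33 CPM, which is called lower in 1CT-A. The 4 endothelial markers sum to 0.211 ± 0.269 and 0.0585 ± 0.101 CPM. The part of these marker differences in the results was not tested. In bulk RNA, fewer cells that express a gene and less of its RNA per cell cannot be told apart.

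The reading frames of 3 members and a pseudogene are shown first because their likeness sets how the counts can be read. They are taken from the GENCODE 44 transcripts, 5′ to 3′, from the start codon to the stop codon, with the codons for cysteine (TGC and TGT) in capitals. The metal-binding residues fill the frame, with 20 cysteine codons among the 61 codons before the stop in each of MT2A, MT1E and MT1X. MT2A is the most abundant member, MT1E the next and MT1X one that is not called. MT1L, a neighbouring pseudogene that is not a member, is shown as the stretch aligned to the MT1E frame.
MT2A: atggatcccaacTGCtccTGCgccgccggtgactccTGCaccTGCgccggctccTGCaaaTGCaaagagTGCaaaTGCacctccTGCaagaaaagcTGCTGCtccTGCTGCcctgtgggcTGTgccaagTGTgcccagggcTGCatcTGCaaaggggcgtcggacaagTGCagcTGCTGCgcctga
MT1E: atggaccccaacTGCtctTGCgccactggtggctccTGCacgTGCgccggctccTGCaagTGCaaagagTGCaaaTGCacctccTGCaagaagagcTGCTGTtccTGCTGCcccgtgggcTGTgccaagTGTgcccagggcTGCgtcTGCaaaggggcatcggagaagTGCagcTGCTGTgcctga
MT1L: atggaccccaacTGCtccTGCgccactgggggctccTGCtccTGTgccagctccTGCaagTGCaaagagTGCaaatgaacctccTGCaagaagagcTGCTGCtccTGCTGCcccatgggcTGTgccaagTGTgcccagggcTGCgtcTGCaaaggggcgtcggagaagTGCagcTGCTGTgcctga
MT1X: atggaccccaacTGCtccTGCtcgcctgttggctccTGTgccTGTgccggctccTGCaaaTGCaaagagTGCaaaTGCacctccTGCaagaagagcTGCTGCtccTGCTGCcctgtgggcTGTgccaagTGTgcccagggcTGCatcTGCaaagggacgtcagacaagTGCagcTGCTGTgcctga

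Along this frame MT2A is 92.5% identical to MT1E and MT1X is 93.0% identical to MT2A. MT1L differs from MT1E at 10 of the 186 bases, counted from 1 at the A of the start codon, and 1 of these differences, C78A (MT1E base first), turns the cysteine codon 26 of MT1E into a stop. A 3′ end library reads mainly the last stretch of the transcript. There the members' closest copies are between 74.0% (MT1X) and 92.0% (MT1M) identical over 200 bases. How far reads reach back into this frame is not known here. Of the 126 windows of 75 bases in the last 200 annotated bases, none of those of the 8 metallothionein members, nor of MT1L read together with the noncoding RNA that overlaps it, occurs in a transcript of another gene. With windows of 50 bases the share found in another gene is 19.2% for MT1M, whose last 200 bases are 92.0% identical to those of the pseudogene MT1JP, and 7.28% for both MT1G and MT1H, which share theirs with each other. It is 3.31% for MT1E, 2.65% for MT2A and 0 for MT1A, MT1F and MT1X. The read length and the treatment of reads that match several genes are not given in the sources used here. By these windows alone, MT1M, MT1G and MT1H are the members whose counts are most open to reads of a copy. Reads that reach further back than 200 bases were not assessed.

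On GRCh38 the metallothionein members lie together on chromosome 16, over 75.6 kb from the start of MT2A at 56608584 to the end of MT1X at 56684196, all on the plus strand but MT1G. MT1E runs from 56625475 to 56627112, MT1M from 56632659 to 56633981, MT1A from 56638666 to 56640087 and MT1F from 56657731 to 56660698. MT1G runs from 56666730 to 56668065 on the minus strand and MT1H from 56669814 to 56671129 on the plus strand. MTF1 (chromosome 1, 37809574 to 37859592) and SLC30A1 (chromosome 1, 211571568 to 211579161) lie elsewhere, both on the minus strand. These places describe the annotation and not the authors' counting, which used hg19.

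The promoters of 4 members are shown with the letters in them that match the core of the element through which MTF1 acts. They are the 250 bases before the annotated start in the RefSeq table of GRCh38.p14, 5′ to 3′ on the strand of the gene, and the capitals mark matches of TGCACNC or TGCGCNC, the core of the metal response element, which reads GNGTGCA or GNGCGCA where it lies on the opposite strand. Overlapping matches are allowed. MT2A lies at chr16:56608334-56608583 (+), MT1H at chr16:56669564-56669813 (+), MT1X at chr16:56682220-56682469 (+) and SLC30A1 at chr1:211579162-211579411 (-).
MT2A promoter: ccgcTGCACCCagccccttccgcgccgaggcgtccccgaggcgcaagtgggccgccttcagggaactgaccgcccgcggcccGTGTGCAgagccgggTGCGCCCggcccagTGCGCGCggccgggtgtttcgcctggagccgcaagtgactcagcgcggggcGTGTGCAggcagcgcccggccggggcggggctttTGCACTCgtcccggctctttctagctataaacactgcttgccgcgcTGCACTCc
MT1H promoter: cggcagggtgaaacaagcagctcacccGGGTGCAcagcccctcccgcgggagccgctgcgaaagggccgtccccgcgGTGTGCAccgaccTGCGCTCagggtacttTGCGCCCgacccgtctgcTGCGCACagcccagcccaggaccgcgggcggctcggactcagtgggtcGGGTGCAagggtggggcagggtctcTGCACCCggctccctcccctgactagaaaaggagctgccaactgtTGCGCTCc
MT1X promoter: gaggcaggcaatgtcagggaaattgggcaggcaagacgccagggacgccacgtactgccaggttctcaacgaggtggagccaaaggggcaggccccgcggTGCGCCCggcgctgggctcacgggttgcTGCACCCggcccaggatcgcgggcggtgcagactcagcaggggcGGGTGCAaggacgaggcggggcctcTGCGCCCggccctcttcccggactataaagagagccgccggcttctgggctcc
SLC30A1 promoter: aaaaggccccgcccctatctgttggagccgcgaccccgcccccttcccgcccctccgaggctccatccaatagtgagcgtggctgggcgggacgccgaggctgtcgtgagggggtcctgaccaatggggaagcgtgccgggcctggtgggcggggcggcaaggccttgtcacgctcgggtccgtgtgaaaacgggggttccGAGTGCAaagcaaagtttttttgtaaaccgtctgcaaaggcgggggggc

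MT1H holds 8 matches, MT2A 7, MT1X 4 and SLC30A1 1, and MTF1, also in the table, holds 0. Among the 35116 promoters of the table, 24.8% hold at least 1 match, 0.370% at least 4, 0.0313% at least 7 and 0.0171% at least 8. A match near 50 bases before the start is found in MT2A, MT1H, MT1X and SLC30A1. The promoters matched in the table are those of 5 of the 10 members, and MT1A, MT1E, MT1F, MT1G and MT1M have no entry. A match of these letters is a description of the sequence and not a measured site of binding.

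**Figure D1:**
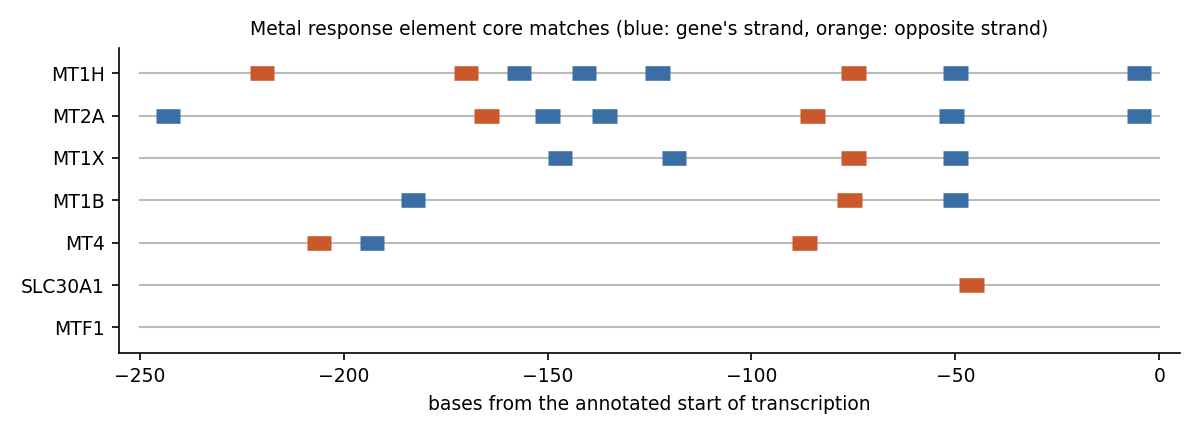
Places of the metal response element core matches in the 250 bases before the annotated start of 7 genes, with bases from the start on the x axis and 1 line per gene, blue for a match on the strand of the gene and orange for the opposite strand. MT1H with 8 and MT2A with 7 matches are the most densely marked, MT1B and MT4 hold 3 each, and MTF1 holds 0.

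Of the 10 members, 7 are called lower in 1CT-A, 1 is called higher and 2 are not called, by edgeR's quasi-likelihood test at a Benjamini-Hochberg adjusted p under 0.05 over the 12514 genes tested. The differences between these lines are wide, since 51.0% of all genes tested are called, 26.0% lower and 25.0% higher. The median log2 fold change of the 10 members is -0.77, against -0.01 over all genes tested. All 10 passed the filter on low counts, but MT1F passed through the 1CT libraries alone. MT1M was over the cut in 3 1CT and 2 1CT-A libraries, so it also leaned on 1CT. The count and the median are therefore a description and not a test of the list. Without replicate 1 of 1CT-A the number of members called lower is 4 in place of 7, and that of all genes is 2958 in place of 3257. An adjusted p below comes from this fit unless another fit is named beside it.

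MT2A, the main metallothionein of most human tissues, is the second most counted gene in each of the 6 libraries. It has 143334, 172759 and 132904 counts in 1CT and 145857, 160263 and 218930 in 1CT-A, which are 16958, 20859 and 17064 CPM in 1CT and 13072, 14066 and 17371 CPM in 1CT-A. The highest 1CT-A library lies above the lowest 1CT libraries, so the lines overlap, although their means of 18294 ± 2222 and 14837 ± 2251 CPM (SD, n = 3) differ. The log2 fold change is -0.34 (SE 0.10, adjusted p = 0.013), and the exact two-sided permutation test of the CPM gives p = 0.3, where 3 libraries against 3 cannot go below 0.1. The call on MT2A is lost without replicate 2 of 1CT (log2 fold change -0.24, adjusted p = 0.0584), without replicate 1 of 1CT-A (-0.26, 0.0735) and without replicate 2 of 1CT-A (-0.29, 0.0664), so this is the least firm of the calls on abundant members.

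MT1E, the next metallothionein in abundance, has 3076, 3211 and 2959 CPM in 1CT and 1782, 1827 and 1842 CPM in 1CT-A. Every 1CT library is far above every 1CT-A library, and the libraries of a line lie close together. The means are 3082 ± 126 and 1817 ± 31.2 CPM (SD, n = 3), and the log2 fold change is -0.80 (SE 0.06, adjusted p = 2.1e-07), 1.74-fold lower. In the order of genes by counts MT1E moves from rank 20 to 22 in the 1CT libraries to rank 52 to 56 in the 1CT-A libraries.

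MT1A, a copy of the same cluster, goes the other way. It has 19.2, 16.5 and 17.2 CPM in 1CT and 28.9, 28.6 and 32.5 CPM in 1CT-A, on 134 to 162 and 323 to 410 counts. Each 1CT-A library lies above each 1CT library. MT1A is 1.66-fold higher in 1CT-A, with a log2 fold change of 0.73 (SE 0.11, adjusted p = 1.0e-04), and it is the single member called higher.

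MT1X, whose frame above differs little from that of MT2A, shows no called difference. Its values are 46.9, 46.6 and 51.2 CPM in 1CT and 48.3, 46.4 and 49.5 CPM in 1CT-A, and the lines overlap almost wholly. The means are 48.2 ± 2.60 and 48.1 ± 1.55 CPM, and the log2 fold change of -0.04 (SE 0.09, adjusted p = 0.701) is not called and takes the other sign under 2 of the alternatives.

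MT1G, the gene on the minus strand, has 19.4, 20.6 and 18.4 CPM in 1CT and 11.0, 11.3 and 13.3 CPM in 1CT-A. The lines do not overlap. Its means are 19.5 ± 1.14 and 11.9 ± 1.25 CPM, and its log2 fold change is -0.75 (SE 0.13, adjusted p = 2.8e-04). MT1H, its neighbour on the plus strand, rests on 29, 26 and 18 counts in 1CT and 13, 18 and 24 in 1CT-A, or 3.43, 3.14 and 2.31 against 1.17, 1.58 and 1.90 CPM. The CPM of the lines do not overlap, and the log2 fold change of MT1H is -0.96 (SE 0.30, adjusted p = 0.0155). This call is lost with DESeq2 (adjusted p = 0.088), without replicate 1 of 1CT (-0.84, 0.0652) and without replicate 1 of 1CT-A (-0.80, 0.066).

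The largest differences among the members are in MT1F and MT1M, a pair of rare transcripts. MT1M has 33, 123 and 39 counts in 1CT and 5, 12 and 23 in 1CT-A, or 3.90, 14.9 and 5.01 against 0.448, 1.05 and 1.82 CPM. Replicate 2 of 1CT stands well above the rest, and even so the lowest 1CT library is above the highest 1CT-A library. The log2 fold change of MT1M is -2.83 (SE 0.52, adjusted p = 5.8e-04), and without that library it is -2.0 (adjusted p = 0.00145). MT1F has 17, 23 and 14 counts in 1CT and 3, 0 and 3 in 1CT-A, so that every 1CT-A library is at or under the floor of 3 counts. Summed over the libraries the 54 counts in 1CT and 6 in 1CT-A give a 12.9-fold ratio of CPM, with an exact 95% counting interval from 5.56 to 36.7 that covers counting error only. The fitted log2 fold change of MT1F, which is no bound at so few counts, is -3.63 (SE 0.54, adjusted p = 1.0e-04), and neither gene is tested when 10 counts are asked of every library.

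**Figure D2:**
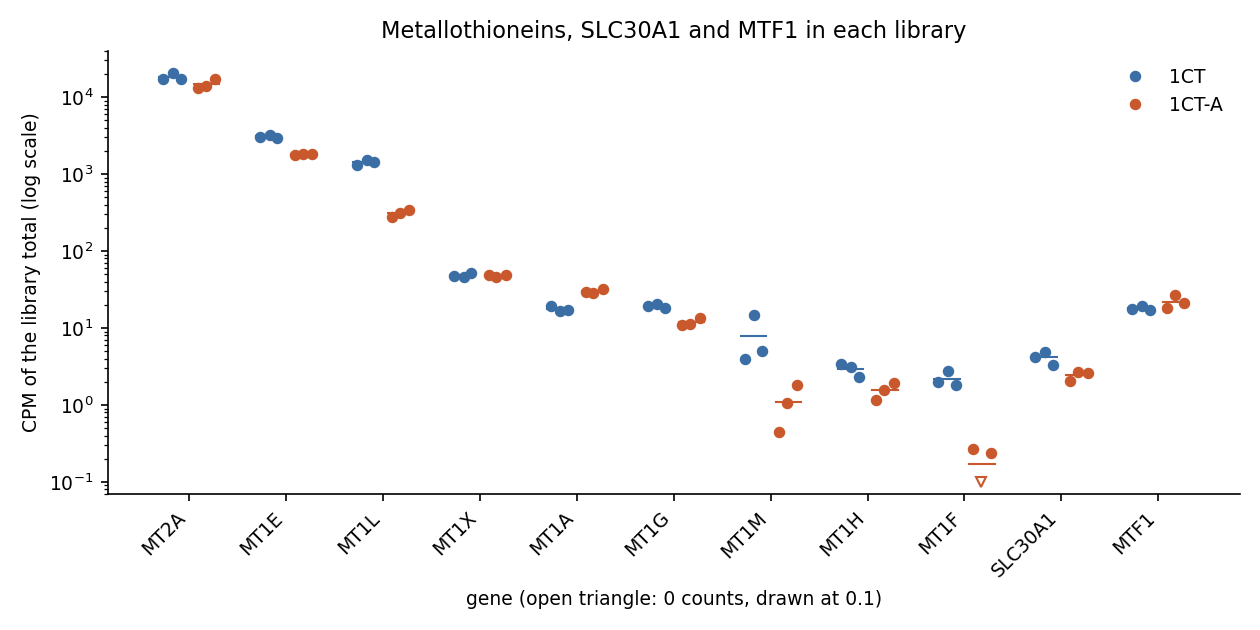
CPM of the library total on a log scale for the 10 members and MT1L, with 1 point per library (blue 1CT, orange 1CT-A), the line at the mean of 3 libraries and an open triangle at 0 counts. MT2A and MT1E are the most abundant, the lines overlap in MT1X, MT1A is higher in 1CT-A, and MT1F has 3, 0 and 3 counts there.

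The order of the levels differs between the lines. In 1CT the order after MT2A, MT1E and MT1X is MT1G, MTF1, MT1A, MT1M, SLC30A1, MT1H and MT1F. The 1CT libraries of MT1G, MTF1 and MT1A overlap one another, and so do those of each neighbouring pair from MT1M to MT1F. In 1CT-A the order after MT1X is MT1A, MTF1, MT1G, SLC30A1, MT1H, MT1M and MT1F, and of these neighbours MT1H and MT1M overlap.

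The pseudogene MT1L, which is no member, is the third metallothionein symbol in abundance and shows the clearest difference in the cluster. It has 11173, 12551 and 11182 counts in 1CT and 3068, 3528 and 4329 in 1CT-A, or 1322, 1515 and 1436 against 275, 310 and 343 CPM. MT1L is 4.73-fold lower in 1CT-A, with a log2 fold change of -2.24 (SE 0.09, adjusted p = 7.4e-10). A long noncoding RNA annotated from 56617423 to 56618832 spans MT1L (56617563 to 56618680) on the same strand of chromosome 16, and their reads may not be told apart. The pseudogene MT1JP has 107, 142 and 105 counts in 1CT and 67, 70 and 96 in 1CT-A, and its log2 fold change is -1.16 (SE 0.16, adjusted p = 6.9e-05). MT1HL1, a further copy on chromosome 1, has 26, 41 and 30 against 17, 20 and 21 counts, with a log2 fold change of -1.29 (SE 0.27, adjusted p = 0.00153), and MT1B has a log2 fold change of -0.66 (SE 0.29, adjusted p = 0.0745). Of the 50-base windows in the last 200 bases, 22.5% of those of MT1JP occur in MT1E or MT1M. For MT1HL1 18.5% occur in MT1H. The counts of MT1JP and MT1HL1 are thus open to reads of those genes. MT3, MT4, MT1IP and MT1DP have at most 8 counts in any library and are not tested. In all, 16 metallothionein symbols are in the files and 12 are tested, of which 9 are called lower, 1 higher and 2 not called, with a median log2 fold change of -0.88. Beside them 26.0% of all genes tested are called lower and 25.0% higher, and the 9 include 6 members.

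Summed over the 16 symbols, metallothionein transcripts make up 21471, 25715 and 21575 CPM in 1CT and 15229, 16302 and 19669 CPM in 1CT-A. This sum does not depend on how the counted reads are divided between these symbols. It would depend on any dropping or repeated counting of reads that match several genes, which is not known here. The highest 1CT-A library stays below the lowest 1CT library. The mean share of a library is 2.29% ± 0.242 in 1CT and 1.71% ± 0.232 in 1CT-A (SD, n = 3), a ratio of 0.745, and the exact two-sided permutation p is 0.1, the smallest that 3 against 3 allows. Most of this sum is MT2A.

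The makeup of the sum differs between the lines as well. MT2A makes up 79.7% ± 1.20 of the metallothionein counts in 1CT and 86.8% ± 1.32 in 1CT-A, MT1E 13.5% ± 0.936 and 10.8% ± 1.23, and MT1L 6.23% ± 0.387 and 1.82% ± 0.0772. For each of these shares the lines do not overlap. Ratios within a library do not depend on its scaling. For each 100 counts of MT2A there are 18.1, 15.4 and 17.3 counts of MT1E in 1CT and 13.6, 13.0 and 10.6 in 1CT-A. For each 100 counts of MT1E there are 43.0, 47.2 and 48.5 counts of MT1L in 1CT and 15.4, 16.9 and 18.6 in 1CT-A, so MT1L is lower by more than MT1E is in every library of the line. The opposite holds for MT1A and MT1X. For each 1000 counts of MT1E there are 5.73 ± 0.545 counts of MT1A in 1CT and 16.5 ± 1.03 in 1CT-A, and 15.7 ± 1.45 against 26.5 ± 0.921 of MT1X. Each of these 4 ratios separates the lines with an exact two-sided permutation p of 0.1, the smallest possible.

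**Figure D3:**
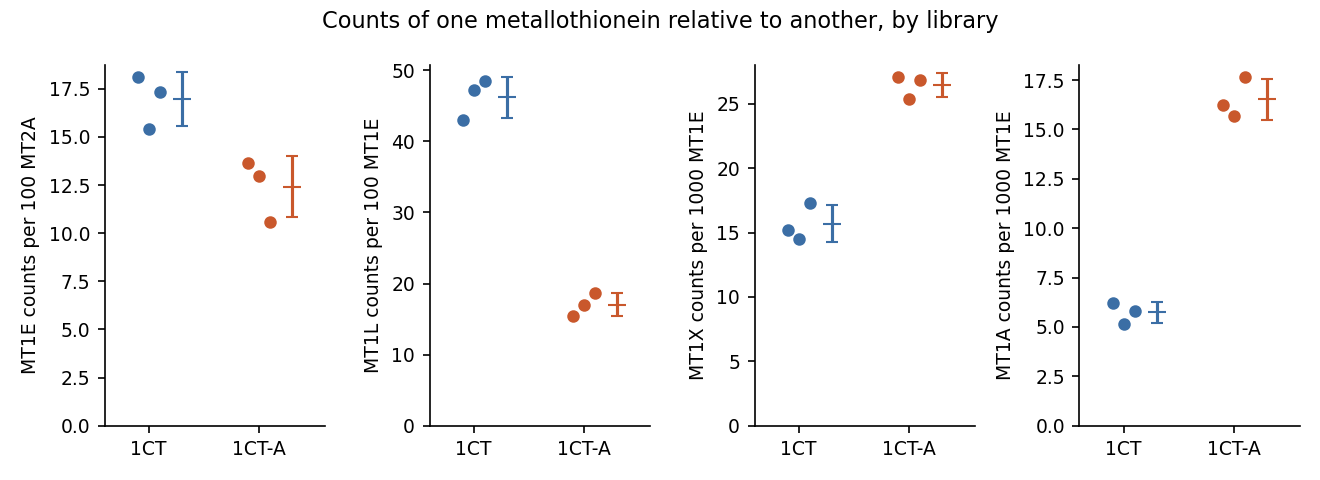
Counts of 1 metallothionein relative to another in each library, with the pair named on each y axis, 1 point per library (blue 1CT, orange 1CT-A) and the mean with its SD over 3 libraries. MT1E per MT2A and MT1L per MT1E are lower in all 1CT-A libraries, and MT1X per MT1E and MT1A per MT1E are higher in all of them.

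None of the neighbours of the cluster described here is called lower. Their starts lie from 417 kb before the start of MT2A (GNAO1) to 637 kb past it (ARL2BP). Of 12 neighbours on chromosome 16, 9 are tested, of which 3 are called higher, 0 lower and 6 not called by edgeR's quasi-likelihood test, with a median log2 fold change of 0.03. Over all genes tested 26.0% are called lower and 25.0% higher, and the calls on 9 neighbours were not tested against that share. At an unadjusted p under 0.05 the number lower is 0 and by DESeq2 it is 0 as well, whereas HERPUD1 is called lower without replicate 3 of 1CT (log2 fold change -0.22, adjusted p = 0.0348). NUDT21, a subunit of the machinery that sets polyadenylation sites, has 77.6 ± 14.3 CPM in 1CT and 145 ± 3.94 in 1CT-A (log2 fold change 0.86, SE 0.11, adjusted p = 2.3e-05). NUP93, a nuclear pore protein whose gene starts past the MT1X end, has 248 ± 6.96 and 396 ± 5.85 CPM (0.64, SE 0.06, adjusted p = 2.7e-06). CPNE2, further away, has a log2 fold change of 1.09 (SE 0.25, adjusted p = 0.00288). BBS2, within which MT4 lies, has 15.5 ± 3.50 and 15.6 ± 2.91 CPM and is not called (-0.03, SE 0.17, adjusted p = 0.889, with a sign that changes between settings). The other neighbours that are not called are OGFOD1 (-0.16), HERPUD1 (-0.11), NLRC5 (0.39), RSPRY1 (-0.02) and ARL2BP (0.03), and GNAO1, SLC12A3 and CETP are not tested. Within the cluster itself the fitted log2 fold change runs from -3.63 (MT1F) to 0.73 (MT1A). The value of MT1F is no bound, as it rests on 3, 0 and 3 counts in 1CT-A. The well-counted MT1L is at -2.24.

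**Figure D4:**
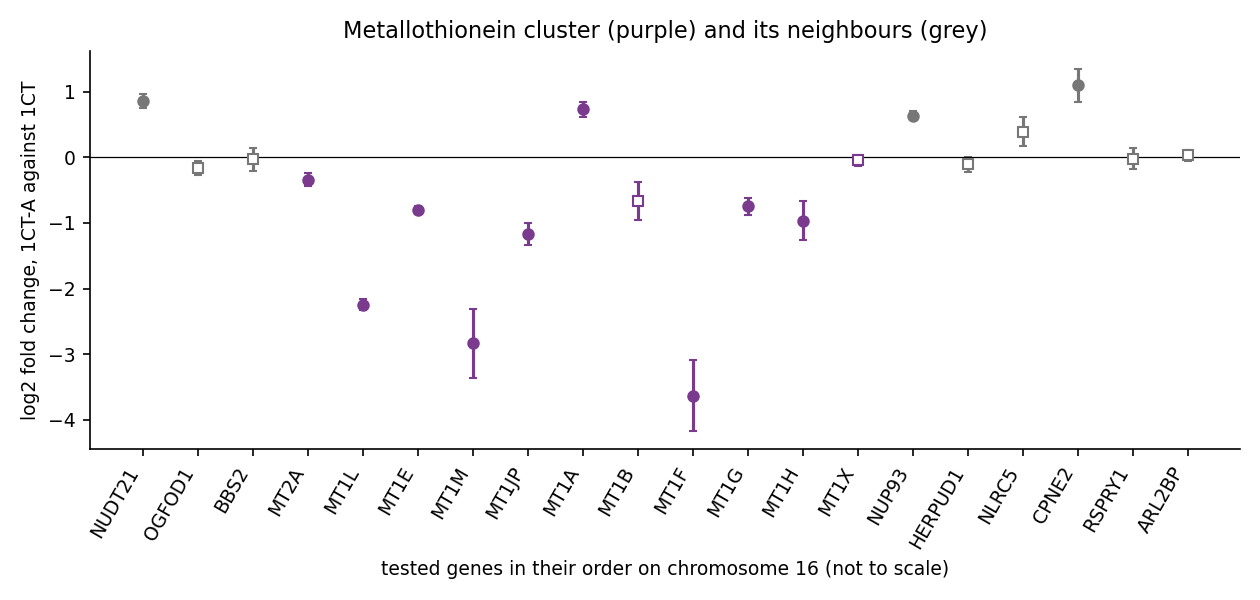
Log2 fold change (1CT-A relative to 1CT) with its SE for the tested metallothionein symbols of chromosome 16 (purple) and 9 tested neighbours (grey), in their order on the chromosome, filled where called and open where not. The called members of the cluster are below 0 apart from MT1A at 0.73, and the called neighbours NUDT21, NUP93 and CPNE2 are above 0.

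MTF1, the sensor that drives this family, is not called. It has 17.5, 19.6 and 16.9 CPM in 1CT and 18.5, 26.6 and 21.0 CPM in 1CT-A, and replicate 2 of 1CT-A is the highest. The lines overlap, with means of 18.0 ± 1.37 and 22.0 ± 4.16 CPM. The log2 fold change is 0.25 (SE 0.14, adjusted p = 0.148), and the exact two-sided permutation p is 0.2.

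SLC30A1, the exporter under the control of MTF1, has 36, 41 and 26 counts in 1CT and 23, 31 and 33 in 1CT-A, or 4.26, 4.95 and 3.34 against 2.06, 2.72 and 2.62 CPM. On the CPM scale all 1CT libraries are above all 1CT-A libraries. The log2 fold change of SLC30A1 is -0.80 (SE 0.25, adjusted p = 0.0156), the same size as that of MT1E on far fewer counts. The call is lost with DESeq2 (adjusted p = 0.0878), without replicate 2 of 1CT (-0.66, 0.0694) and without replicate 1 of 1CT-A (-0.69, 0.0607).

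A list of 9 genes of zinc sensing and MTF1 targets includes the members MTF1 and SLC30A1. It also holds SP1 and EP300, regulators of transcription, so its counts do not describe MTF1 targets alone. Of the 9, 1 is called higher, 3 are called lower and 5 are not called, with a median log2 fold change of -0.13. Among all genes tested the shares are 25.0% higher and 26.0% lower. CSRP1, a zinc-binding LIM protein, has 88.3 ± 6.83 CPM in 1CT and 48.3 ± 2.89 in 1CT-A (log2 fold change -0.91, SE 0.09, adjusted p = 1.9e-06 by edgeR's quasi-likelihood test). SP1, a zinc-finger transcription factor, is higher at 18.3 ± 1.80 and 32.2 ± 1.72 CPM (0.77, SE 0.11, adjusted p = 6.3e-05). EP300, a coactivator with histone acetyltransferase activity, is lower (-0.34, SE 0.12, adjusted p = 0.0292), a call lost under DESeq2 and in 4 of the 6 fits that leave out a library.

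The other transporters of zinc hold calls in both directions. Of 11 genes for zinc exporters 7 are tested, of which 1 is called higher, 2 lower and 4 not called, with a median log2 fold change of -0.33. For comparison, 25.0% of all genes tested are called higher and 26.0% lower. SLC30A6, which works in the Golgi, has 14.5 ± 1.35 CPM in 1CT and 20.6 ± 2.16 in 1CT-A (log2 fold change 0.47, SE 0.13, adjusted p = 0.00746). SLC30A7, also of the Golgi, has 25.6 ± 3.75 and 20.8 ± 2.46 CPM and overlaps between the lines (-0.34, SE 0.13, adjusted p = 0.0393). The call on SLC30A7 is lost with DESeq2, with library size only and in 4 of the 6 fits that leave out a library, and with the replicate block its adjusted p is 0.0552. SLC30A3 (-0.54), SLC30A4 (-0.33), SLC30A5 (0.18) and SLC30A9 (0.02) are not called. SLC30A2, SLC30A8, SLC30A10 and TMEM163 have at most 3 counts in any library.

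Of the 14 importers of the SLC39 family 12 are tested, of which 3 are called higher, 2 lower and 7 not called, with a median log2 fold change of -0.02. Across all genes tested 25.0% are called higher and 26.0% lower. SLC39A8, a plasma membrane importer of zinc, manganese and iron, stands out with 50, 47 and 45 counts in 1CT and 0, 4 and 3 in 1CT-A. The summed 142 and 7 counts give a 29.1-fold ratio of CPM, with an exact 95% counting interval from 13.8 to 73.6. SLC39A8 passed the filter on low counts through the 1CT libraries alone. Its fitted log2 fold change, which is no bound at so few counts, is -4.82 (SE 0.43, adjusted p = 1.3e-06), and -5.41 without replicate 2 of 1CT-A. SLC39A13, an importer into the cytosol from inner compartments, has 156 ± 5.69 CPM in 1CT and 113 ± 0.922 in 1CT-A (-0.51, SE 0.07, adjusted p = 4.3e-05). The abundant SLC39A1, a plasma membrane importer, goes the other way at 188 ± 10.6 and 241 ± 7.61 CPM (0.32, SE 0.07, adjusted p = 0.00214).

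SLC39A9 (0.23, SE 0.08, adjusted p = 0.0286) and SLC39A14 (0.28, SE 0.11, adjusted p = 0.0473) are also called higher by edgeR's quasi-likelihood test, and both calls are lost in most of the fits that leave out a library. With the replicate block the adjusted p of SLC39A9 is 0.0507. SLC39A3 (0.17), SLC39A4 (-0.52), SLC39A5 (-0.27), SLC39A6 (0.34), SLC39A7 (0.02), SLC39A10 (-0.13) and SLC39A11 (-0.05) are not called, and SLC39A2 and SLC39A12 are not tested. SLC39A6 is called higher under 5 alternatives, which are library size only (adjusted p = 0.0393), no filter (7.93e-04), DESeq2 (0.0459), without replicate 2 of 1CT (0.0172) and without replicate 1 of 1CT-A (0.0274).

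**Figure D5:**
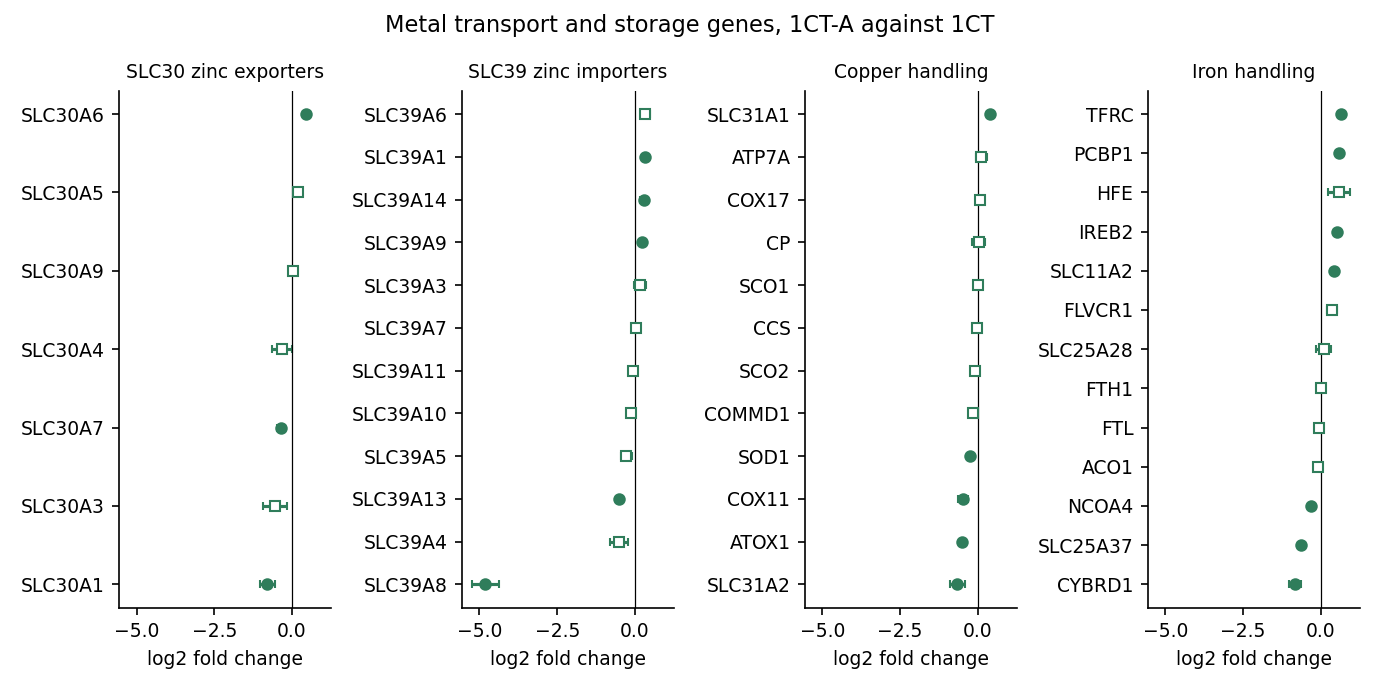
Log2 fold change (1CT-A relative to 1CT) with its SE for the tested zinc exporters, zinc importers, copper genes and iron genes, 1 panel each on the same x axis, filled circles where called and open squares where not. SLC39A8 at -4.82 is far from the rest, but this fitted value is no bound at 0, 4 and 3 counts in 1CT-A. SLC30A1 at -0.80 is the lowest of the tested exporters.

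Since hydrocortisone is in the medium of both lines, genes of the glucocorticoid response are given beside the metallothioneins. The list holds 10 genes, among them that of the receptor itself, NR3C1, which is one of those called higher. All are tested, of which 6 are called higher, 2 lower and 2 not called, with a median log2 fold change of 0.28. Beside them 25.0% of all genes tested are called higher and 26.0% lower. TSC22D3, which encodes the glucocorticoid-induced leucine zipper, has 138 ± 6.61 CPM in 1CT and 311 ± 23.8 in 1CT-A (log2 fold change 1.14, SE 0.08, adjusted p = 9.3e-08 by edgeR's quasi-likelihood test). CRISPLD2 has 69.6 ± 2.55 and 158 ± 7.36 CPM (1.14, SE 0.07, adjusted p = 7.1e-08). KLF9 (0.96, SE 0.12, adjusted p = 3.3e-05) and FKBP5, a chaperone of the receptor (0.79, SE 0.07, adjusted p = 1.3e-06), are higher as well. The kinase gene SGK1 (-1.26, SE 0.16, adjusted p = 3.0e-05) and the phosphatase gene DUSP1 (-0.94, SE 0.12, adjusted p = 2.3e-05) are lower.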

How the data were processed

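RNA of 3 1CT and 3 1CT-A libraries was measured by QuantSeq 3′ sequencing on an Illumina NextSeq instrument. The authors deposited raw counts, whole numbers of reads per gene symbol in 1 file per library, with 25737 entries for 24462 symbols, and no pooling of replicates. The study's methods describe the bulk samples under RNA sequencing but also name a cDNA microarray for them. The labels and the whole-number values were followed here. The submitters' processing notes name Bowtie2, edgeR and hg19. The counting tool, annotation, use of strand and treatment of multi-mapping reads are not given in the sources used here. Without strand, overlapping genes cannot be told apart.

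Counts of the 286 repeated symbols were added together. CPM are counts per 1000000 of each file's total. All 6 libraries were fitted together in edgeR 4.0.16 under R 4.3.3, without a block, with TMM factors between 0.976 and 1.02 and a filterByExpr minimum of 10 counts. Genes were called by the quasi-likelihood test for the effect of the line at a Benjamini-Hochberg adjusted p under 0.05 over 12514 genes. The common dispersion was 0.00733. The fit was also run on simulated counts with the same dispersion for every gene, which does not check the calls on these libraries. Exact permutation tests of CPM were two-sided. Reads carry no molecular identifier in these counts, so intervals and the floor of 3 counts cover counting error only.

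The members and all gene lists were chosen with earlier results of these data known. Named are the members, the other metallothionein symbols, APC, and from each list the called genes with the largest log2 fold change, at most 4 per direction, with all zinc transporters and the cluster neighbours. NR3C1 and the untested ATP7B are named besides. A further neighbour is not reported here. Markers are named as counts. No list was tested as a set.

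The same results were also computed with size factors from DESeq2 or none, with no filter or with 10 counts asked of each library, with DESeq2 1.42.0 and limma-voom (limma 3.58.1) as the test, with the replicate number as a block, at other thresholds, leaving out every library once and, chosen after seeing the data, with metallothionein counts taken out of the library sizes. Positions and coding frames come from GENCODE 44 on GRCh38 and promoters from RefSeq on GRCh38.p14. The single cell data of the study were not analysed here.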

Additional observations from a re-analysis of the deposited data

How the results depend on the processing

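The number of the 10 members called lower is 7, beside 3257 of all 12514 genes tested. It is 4 at an adjusted p under 0.01 (2448 of all genes), and 2 at a fold of at least 2 with an unadjusted p under 0.01. With DESeq2 it is 5 (2849 of 15828 genes), and with 10 counts asked of every library also 5 (2801 of 11252). When a library is left out it is between 4 and 7, and between 2767 and 3299 over all genes. The number called higher is 1, and 0 at the fold of at least 2, and 1 whichever library is left out. Over all genes that threshold gives 475 higher and 1201 lower in place of 3131 and 3257. Of 138 values of the members under alternatives, 127 keep direction and side of the threshold, 9 lose the call (MT2A, MT1H and SLC30A1) and 2 change sign. Without a filter the log2 fold change is 0.0034 for MT1X, 0.0133 for BBS2 and 0.0254 for RSPRY1, with library size only it is 0.0046 for BBS2 and 0.0182 for RSPRY1, and with DESeq2 it is 0.0015 for RSPRY1, all with a changed sign. Over the fits that leave out a library it runs from -0.0672 to 0.0190 for MT1X, -0.0324 to 0.0828 for ARL2BP, -0.166 to 0.140 for BBS2, -0.168 to 0.157 for RSPRY1, -0.0178 to 0.0861 for SLC30A9, -0.130 to 0.0221 for SLC39A11 and -0.0147 to 0.379 for SLC39A3, none of them called. The cause was not tested. The fit with the replicate block calls 6091 genes in place of 6388, with 6000 in both, changes no member's call and loses those of SLC30A7, SLC31A2 and SLC39A9. The deviations of libraries that share a replicate number have correlations of -0.161, 0.220 and -0.139 over 8222 genes. These values do not show a pairing by number. They cannot exclude one, since the sources used here do not say how the replicates were made. Without a filter the median of all genes moves to -0.10, and with DESeq2 to -0.12. At the depth of these libraries MT1F, MT1H, MT1M and SLC30A1 rest on few counts, which limits their precision.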

Other observations

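Copper, the other metal that metallothioneins hold, has a gene list of its own. ATP7B of this list, with 5, 8 and 7 counts in 1CT and 2, 2 and 0 in 1CT-A, is not tested. Of 13 copper genes 12 are tested, of which 1 is called higher, 4 lower and 7 not called by edgeR's quasi-likelihood test, with a median log2 fold change of -0.07. The shares among all genes tested are 25.0% higher and 26.0% lower. ATOX1, the chaperone that carries copper to the exporting pumps, has 69.2 ± 3.18 CPM in 1CT and 50.2 ± 0.574 in 1CT-A (SD, n = 3, log2 fold change -0.50, SE 0.08, adjusted p = 1.8e-04). SOD1, the copper and zinc superoxide dismutase, is lower by a smaller step (-0.26, SE 0.07, adjusted p = 0.00481), and SLC31A1, the plasma membrane copper importer, is higher (0.38, SE 0.09, adjusted p = 0.00409). COX11 (-0.47, adjusted p = 0.0283) and SLC31A2 (-0.66, adjusted p = 0.0366) are called lower, and both calls are lost with DESeq2 and in 4 of the 6 fits that leave out a library. With the replicate block the adjusted p of SLC31A2 is 0.0538.

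Of 16 iron genes 13 are tested, of which 4 are called higher, 3 lower and 6 not called, with a median log2 fold change of 0.09. For comparison, 25.0% of all genes tested are called higher and 26.0% lower. TFRC, the transferrin receptor, has 92.3 ± 6.29 CPM in 1CT and 149 ± 10.5 in 1CT-A (0.65, SE 0.08, adjusted p = 2.1e-05 by edgeR's quasi-likelihood test). IREB2, an RNA-binding regulator of iron genes (0.50, SE 0.08, adjusted p = 2.6e-04), PCBP1, an iron chaperone (0.60, SE 0.09, adjusted p = 1.7e-04), and SLC11A2, an iron importer (0.42, SE 0.10, adjusted p = 0.00278), are higher too. The reductase gene CYBRD1 (-0.83, SE 0.18, adjusted p = 0.00179), the mitochondrial carrier gene SLC25A37 (-0.63, SE 0.11, adjusted p = 2.6e-04) and NCOA4, the receptor for ferritin breakdown (-0.31, SE 0.07, adjusted p = 0.00333), are lower.

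Of 11 genes for zinc-using enzymes 8 are tested, of which 2 are called higher, 3 lower and 3 not called, with a median log2 fold change of -0.43. Across all genes tested 25.0% are called higher and 26.0% lower. NT5E, the surface nucleotidase CD73, has 242 ± 27.1 CPM in 1CT and 107 ± 2.40 in 1CT-A (-1.22, SE 0.08, adjusted p = 1.1e-07 by edgeR's quasi-likelihood test). ALPL, an alkaline phosphatase (-1.48, SE 0.40, adjusted p = 0.00714, a call lost with DESeq2), and SOD3, the extracellular superoxide dismutase (-0.98, SE 0.25, adjusted p = 0.00549), are lower. The carbonic anhydrase gene CA9 has 0, 2 and 1 counts in 1CT and 12, 18 and 17 in 1CT-A. It passed the filter on low counts through the 1CT-A libraries alone. Its fitted value, no bound at so few counts, is 3.28 (SE 0.62, adjusted p = 7.2e-04), and 4.16 without replicate 2 of 1CT. The metalloprotease gene ADAM10 is higher at 0.63 (SE 0.11, adjusted p = 3.8e-04).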
